A study of Mus musculus with 6 samples.

Results

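The 66 genes described here carry the name of the mouse translation initiation factors. Those are the proteins that bring the initiator tRNA, the messenger RNA and the ribosomal subunits together at a start codon. The name also covers binding proteins and relatives with other roles, and all 66 genes are called factors below. They were chosen by name and position: every protein-coding row of the gene count table whose symbol begins with Eif, leaving out the Eif2ak genes (kinases of eIF2, not factors themselves) and the rows on chromosomes X and Y. They make up 66 of 56748 genes in the table. The rule itself uses no measured value. Of the 66, 47 had enough counts to be tested among 15963 genes in all, by edgeR's default filter on low counts (minimum count 10, minimum total 15). The remaining 19 were at or near 0, and 15 of them had no count in any library.

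The libraries are bulk RNA sequencing of mouse bone marrow with MLL-AF9 leukemia, an acute myeloid leukemia driven by a fusion of the MLL and AF9 genes. Libraries 31, 32 and 40 are labelled Rbm5 KO and libraries 25, 27 and 29 are labelled Rbm5 WT, and all 6 share the MLL-AF9 label. RBM5 is an RNA-binding protein of the splicing machinery, and the series title names it together with MYC in leukemia stem cells. The labels call the replicates independent but speak of whole bone marrow in some fields and of cells in culture in another. The sources used here do not say how Rbm5 was removed, nor the age or strain of the animals.

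Initiation runs in a fixed order. eIF2, recharged by its exchange factor eIF2B, delivers the initiator tRNA, and eIF1, eIF1A and eIF5 hold the small ribosomal subunit in a scanning state, with the multi-subunit eIF3 as its platform. The eIF4F complex (cap-binding eIF4E, scaffold eIF4G, helicase eIF4A) recruits the messenger RNA, and the 4E-binding proteins block that step until mTORC1 phosphorylates them. MYC is known to raise the expression of several initiation factors, Eif4e, Eif4a1 and Eif4g1 among them.

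Total counts were 26359299 to 27638075 in the KO libraries and 27140474 to 31807588 in the WT libraries. Rbm5 itself did not fall in the KO libraries: it stood at 269, 267 and 245 CPM (counts relative to the library's total after TMM scaling) in KO libraries 31, 32 and 40, and at 227, 214 and 174 CPM in WT libraries 25, 27 and 29 (edgeR adjusted p = 0.107). The table gives 1 count per gene, so the loss of an exon could not be read, and every direction below rests on the labels. Xist stood at no more than 192 CPM in any KO library and at 1269 to 1625 CPM in the WT libraries, and Eif2s3y had counts in the KO libraries alone, so label and sex cannot be told apart. Tested genes on chromosome 6, which holds 1 of the 47 tested factors (Eif4e3), stood a median of 0.30 higher on the log2 scale in WT libraries 27 and 29 than in the other 4 libraries, against -0.01 for genes elsewhere. Summed neutrophil markers reached 13487 to 30274 CPM in the KO libraries and 1386 to 4160 CPM in the WT libraries, with 11 of 16 genes higher by the edgeR test, and summed monocyte and macrophage markers 3927 to 5712 CPM in KO and 1221 to 1979 CPM in WT libraries, with 3 of 10 higher. The MLL leukemia and progenitor genes summed to 1529 to 2167 CPM in KO and 1692 to 2122 CPM in WT libraries, with 7 of 8 estimates below 0, a median log2 fold change of -0.46 and 1 gene, Hoxa9, called lower. Summed erythroid markers were 3.51 to 5.10 CPM in KO and 1.46 to 2.91 CPM in WT libraries, B cell markers 77.9 to 188 CPM in KO and 88.6 to 151 CPM in WT libraries, and T and NK cell markers 18.4 to 56.6 CPM in KO and 28.3 to 63.3 CPM in WT libraries. No marker of these lists was at 0 in all 6 libraries. In bulk samples, fewer cells of a type and less RNA per cell cannot be told apart, and the part of these cells in the values below was not tested.

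The initiation factors differed little between the labels. At an adjusted p of 0.05 by edgeR's quasi-likelihood test, 1 of 47 tested factors was lower in the KO libraries, 0 were higher and 46 were not called. Over all 15963 genes the same rule called 8.57%, with 3.12% lower and 5.45% higher. The factor called was Eif2b3, a subunit of the exchange factor eIF2B. At an unadjusted p under 0.05 there were 6 factors lower and 2 higher, against 12.4% and 14.5% of all genes. DESeq2 called 2 lower and limma-voom 1, and neither called any higher.

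The estimates for these genes were narrow. The median absolute log2 fold change was 0.16 over the 47 factors and 0.29 over all genes tested, and the median SE was 0.098 against 0.21. For 40 of the 47 factors (85.1%) the 95% interval lay inside a 1.5-fold change in either direction, against 33.9% of all genes tested, many of which have fewer counts. The 7 factors whose interval reached past 1.5-fold were Eif2b3, Eif3j2, Eif4a2, Eif4ebp3, Eif5a2, Eif1 and Eif5. An estimate beyond 1.5-fold itself was found for 3 factors (6.38%), namely Eif2b3, Eif3j2 and Eif5a2, against 25.3% of all genes.

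Most of the small estimates pointed the same way. The log2 fold change was below 0 for 35 of 47 factors (74.5%), against 51.2% of all genes, with a median of -0.11 against -0.01. All 3 KO libraries lay below all 3 WT libraries for 14 factors (29.8%, against 16.5% of all genes), and above them for 2, Eif1 and Eif2b4 (4.26%, against 17.2%). The factors' median deviation from their own means was -0.046, -0.041 and -0.064 in KO libraries 31, 32 and 40, and 0.048, -0.015 and 0.093 in WT libraries 25, 27 and 29 (log2). WT library 27 thus sat closest to the KO libraries. The 5 factors with most counts (Eif4g2, Eif4a1, Eif5a, Eif4a2 and Eif4g1) held 41.4% of all counts on the family. Estimates for Eif4g2, Eif4a1 and Eif4a2 were above 0, and the family summed to 13001 ± 347 CPM in KO and 12857 ± 862 CPM in WT libraries (SD, n = 3 each). Without the TMM factors the order was the other way, with the family at 1.26%, 1.26% and 1.21% of all counts in KO libraries, against 1.34%, 1.30% and 1.38% in WT libraries. Scaling by total counts put the median over all genes at -0.13 and that of the factors at -0.23 (log2 fold change), which leaves the factors' median minus that of all genes at -0.10 with TMM and -0.098 with total counts.

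**Figure D1:**
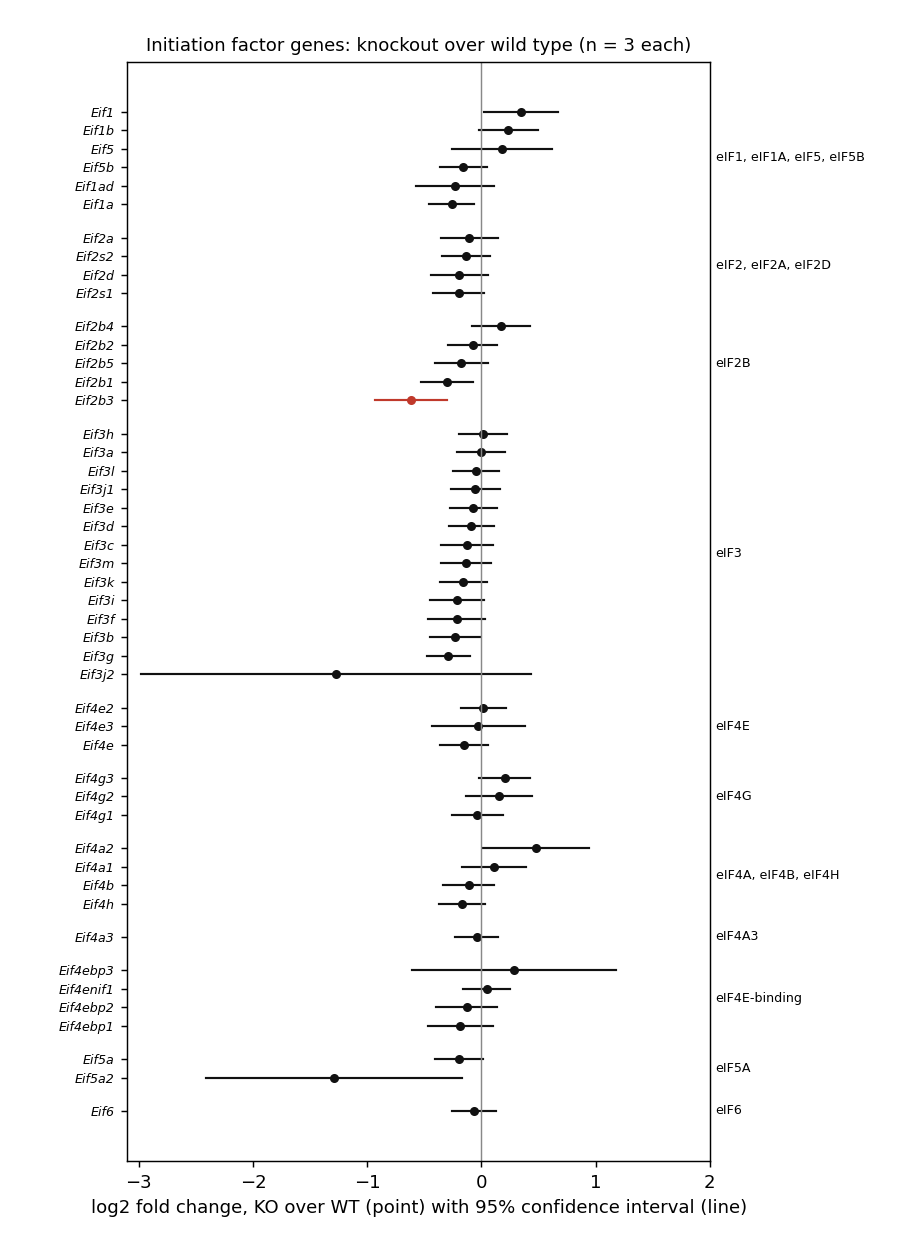
Log2 fold change of KO over WT for each of the 47 tested initiation factors, grouped by role, with 95% intervals from the edgeR fit. Eif2b3 is the called factor, most points lie slightly left of 0, and the wide intervals belong to Eif3j2, Eif5a2 and Eif4ebp3.

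**Figure D2:**
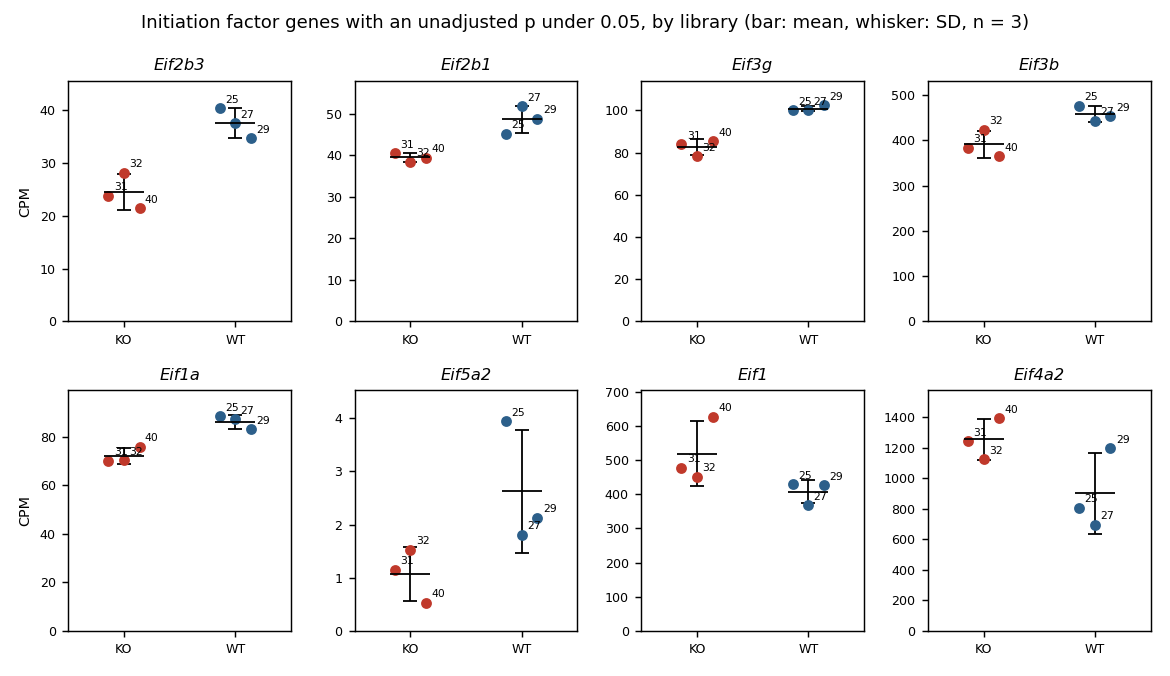
CPM by library, KO left of WT, for the 8 factors with an unadjusted p under 0.05, with 1 numbered point per library, bars for means and whiskers for SDs (n = 3 each). The KO points lie below the WT points for Eif2b3, Eif2b1, Eif3g, Eif3b, Eif1a and Eif5a2 and above them for Eif1, while for Eif4a2 WT library 29 overlaps the KO libraries.

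The promoters were searched for CACGTG, the E-box bound by MYC and its partner MAX, because the series title names MYC. The word reads the same on both strands, so matches were not counted again on the other strand. RefSeq promoters (250 bases before to 50 after each start, build GRCm38.p6) were found for 36 of the 47 factors. The word was present in 12 of their 48 promoters (25%), against 7.15% of all 32851 promoters and 9.75% of those of tested genes. Promoters of a gene can overlap, and an Eif5a match that lies in both of its overlapping promoters was counted in each. By gene, 10 of 36 factors (27.8%) held it, against 11.5% of 10719 tested genes with a promoter. Those genes were not matched to the factors by base content or by expression level. The 10 were Eif1b, Eif3a, Eif3f, Eif3k, Eif4a1, Eif4e, Eif4g1, Eif4h, Eif5a and Eif5a2. Stretches that hold it before the start are shown for Eif4e, Eif4g1, Eif4a1, Eif4h, Eif5a and Eif3f, 5′ to 3′ on the gene's strand, since these are abundant or MYC-linked factors described below, and capitals mark the word. A further match after the Eif4g1 start and a further match before another Eif5a start are not printed.
Eif4e, chr3:138527177-138527236, plus strand, 64 bases before the start: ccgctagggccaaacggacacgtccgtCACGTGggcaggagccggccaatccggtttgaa
Eif4e, second match, chr3:138527018-138527072, plus strand, 228 bases before: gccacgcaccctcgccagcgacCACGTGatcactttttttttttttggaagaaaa
Eif4g1, chr16:20672646-20672705, plus strand, 54 bases before: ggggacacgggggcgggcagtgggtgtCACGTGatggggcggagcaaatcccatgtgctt
Eif4a1, chr11:69672580-69672639, minus strand, 189 bases before: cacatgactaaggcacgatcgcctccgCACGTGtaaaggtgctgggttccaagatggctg
Eif4h, chr5:134639473-134639532, minus strand, 96 bases before: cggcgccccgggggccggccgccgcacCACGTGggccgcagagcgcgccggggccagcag
Eif5a, chr11:69921428-69921487, minus strand, 74 or 185 bases before, from 2 annotated starts: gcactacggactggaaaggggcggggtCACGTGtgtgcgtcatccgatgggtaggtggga
Eif3f, chr7:108934320-108934379, plus strand, 68 bases before: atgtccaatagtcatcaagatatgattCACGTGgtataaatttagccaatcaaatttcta

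The median log2 fold change of the factors with the word was -0.16, against -0.11 for the matched factors without it. The called factor, Eif2b3, is not among the 36, so no factor was called with or without the word. Over all tested genes the medians were -0.03 with the word and -0.01 without, and 4.53% with the word and 3.40% without it were called lower. Myc itself had 190 ± 33.8 CPM in KO and 257 ± 34.8 CPM in WT libraries (log2 fold change -0.43, edgeR adjusted p = 0.115, or 0.0397 with no filter on low counts). No other of the 17 alternatives put Myc past the threshold. A match is a description of letters and not a binding site.

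Among the eIF2B subunits, Eif2b3 stood out. It encodes the gamma subunit, which with the epsilon subunit forms the catalytic part of the complex. The table places it on chromosome 4 from 116876599 to 116944503 on the plus strand. It had 23.7, 28.1 and 21.4 CPM in KO libraries 31, 32 and 40, against 40.3, 37.5 and 34.6 CPM in WT libraries 25, 27 and 29. The groups did not overlap: every KO library was below the lowest WT library. The means were 24.4 ± 3.38 CPM in KO and 37.5 ± 2.88 CPM in WT libraries (SD, n = 3 each), or 65.2% of the WT mean (log2 fold change -0.62 ± 0.14 SE, 95% interval -0.93 to -0.30, edgeR adjusted p = 0.0339). The adjusted p was 0.0569 to 0.111 when any single library other than KO 32 was left out, and 0.124 without WT libraries 27 and 29, the libraries in which chromosome 6 genes stood higher. The log2 fold change stayed between -0.73 and -0.53 with 1 library left out.

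The other eIF2B subunits did not pass the test. Eif2b1, the regulatory alpha subunit, had 40.5, 38.5 and 39.5 CPM in KO libraries, against 45.3, 51.9 and 48.8 CPM in WT libraries, again without overlap (log2 fold change -0.30, 95% interval -0.53 to -0.07, edgeR adjusted p = 0.0989). Eif2b4, the delta subunit, had 36.0, 31.7 and 36.2 CPM in KO libraries, against 31.4, 29.8 and 31.1 CPM in WT libraries (log2 fold change 0.17, edgeR adjusted p = 0.354). It was the 1 subunit of 5 with a positive estimate, and the lowest KO library was just above the highest WT library. Snx17 overlaps it on the other strand with more counts than Eif2b4 itself, and whether the counting used strand is not stated. Eif2b2 (beta, the highest of the complex per length at 31.5 RPKM, the CPM divided by the table's gene length in kilobases) and Eif2b5 (epsilon) had log2 fold changes of -0.08 and -0.18 with overlapping groups.

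eIF2 itself has 3 subunits, of which the alpha and beta genes are among the 66. Eif2s1 encodes the alpha subunit, whose phosphorylation turns initiation down under stress. At 24.8 RPKM it had the highest level per length of its group. It had 118.0, 118.5 and 106.3 CPM in KO libraries, against 139.9, 119.0 and 135.0 CPM in WT libraries (log2 fold change -0.20, edgeR adjusted p = 0.232). All KO libraries were below the lowest WT library, KO 31 and KO 32 only narrowly. Eif2s2, the beta subunit, had 119, 116 and 120 CPM in KO libraries, against 134, 118 and 137 CPM in WT libraries, and the groups overlapped (edgeR adjusted p = 0.370). Eif2a and Eif2d, which deliver tRNA outside the usual route, had log2 fold changes of -0.10 and -0.19 and were not called. Both overlap a gene with more counts on the other strand (Serp1 and Rassf5). In all, 8 of the 47 tested factors overlap genes holding at least 50% as many counts as they do. Besides Eif2a, Eif2d and Eif2b4, these are Eif3j1, Eif4enif1, Eif4ebp3, Eif1ad and Eif5b. The overlap is of whole gene spans, introns included. How many reads are affected was not measured, so the values of these factors are uncertain to an unknown extent.

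The gamma subunit, which binds the GTP and the initiator tRNA, is encoded by a gene pair on the sex chromosomes that the name and position rule leaves out. Eif2s3x had 103, 98.0 and 92.3 CPM in KO libraries, against 174, 161 and 178 CPM in WT libraries (log2 fold change -0.80 ± 0.09 SE, edgeR adjusted p = 0.00456). Eif2s3y had 85.8, 101 and 102 CPM in KO libraries and 0 counts in every WT library. Added together the pair reached 189, 199 and 194 CPM in KO libraries, against 174, 161 and 178 CPM in WT libraries. The sum was thus 194 ± 5.29 CPM in KO and 171 ± 8.97 CPM in WT libraries, 114% of the WT mean, although Eif2s3x alone was at 57.3%. Without the TMM factors, the pair held 0.0184%, 0.0198% and 0.0176% of all counts in KO libraries. In WT libraries it held 0.0186%, 0.0170% and 0.0178%, so on that scale the groups overlapped, with KO at 104% of the WT mean. Eif2s3x escapes X inactivation and its Y copy is expressed in males, as background. Eif1ax, the X-linked eIF1A gene, had a log2 fold change of -0.13 and was not called.

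**Figure D3:**
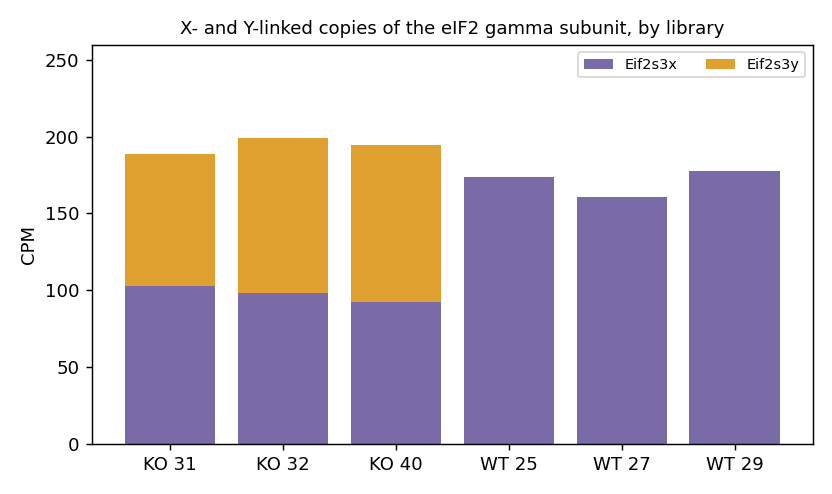
CPM of Eif2s3x and Eif2s3y stacked in 1 bar per library, KO left of WT. Eif2s3y is at 0 in the 3 WT libraries, and the stacked sum is 189 to 199 CPM in KO and 161 to 178 CPM in WT libraries.

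Taken as a group, Eif1, Eif1b, Eif1a, Eif1ad, Eif5 and Eif5b split evenly, with 3 of 6 estimates below 0 and 3 above. Eif1, which keeps the scanning ribosome from stopping at wrong codons, had 478, 452 and 627 CPM in KO libraries, against 430, 368 and 427 CPM in WT libraries. At 221 RPKM it was the highest of its group per length. The groups did not overlap, and KO library 40 was well above the rest (519 ± 94.5 CPM in KO and 408 ± 34.9 CPM in WT, SD, n = 3 each, log2 fold change 0.35 ± 0.14 SE, edgeR adjusted p = 0.162). Without KO 40 the log2 fold change was 0.19. Eif1a had 70.0, 70.2 and 75.8 CPM in KO libraries, against 88.3, 87.2 and 82.9 CPM in WT libraries. It too did not overlap, in the other direction, and did not pass the test (log2 fold change -0.26, edgeR adjusted p = 0.1001).

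Eif5, the GTPase-activating protein that triggers release of eIF2, had 531, 544 and 715 CPM in KO libraries, against 451, 455 and 673 CPM in WT libraries. In each label 1 library, KO 40 and WT 29, was far above the other two, and the groups overlapped (log2 fold change 0.18, or 0.033 to 0.40 with 1 library left out, edgeR adjusted p = 0.583). Eif1b, a close relative of Eif1, had a log2 fold change of 0.24, Eif1ad of -0.23 and Eif5b, which joins the subunits, of -0.16, none of them called.

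Libraries KO 40 and WT 29 were each the highest of their label for 10 of 47 factors (21.3%), against 13.6% of all genes tested, a count taken after the values were seen. The 10 were Eif4g2, Eif4a1, Eif4a2, Eif5, Eif3c, Eif3k, Eif3m, Eif2s2, Eif3g and Eif6, and for some of them, such as Eif3g and Eif6, the gap to the other libraries was small. The same libraries had the highest summed level of 8 immediate early and handling genes, at 5127, 6462 and 16356 CPM in KO libraries 31, 32 and 40 and 3516, 3074 and 8924 CPM in WT libraries 25, 27 and 29. The part of that difference in the factors' values was not tested.

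eIF3 was the largest group, with 14 tested genes, and 13 of the 14 estimates were below 0. None passed the test. Their CPM summed to 3151 ± 75.0 in KO and 3414 ± 88.3 in WT libraries (SD, n = 3 each), or 92.3% of the WT mean. Per library the sum was 3106, 3237 and 3109 CPM in KO, against 3430, 3318 and 3493 CPM in WT libraries, without overlap. The median log2 fold change was -0.13, against -0.01 over all genes.

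Eif3g, an RNA-binding subunit that touches the scanning machinery, came closest to the threshold. It had 83.8, 78.3 and 85.3 CPM in KO libraries, against 100, 100 and 102 CPM in WT libraries. The WT libraries lay close together and all 3 KO libraries were well below them (82.5 ± 3.74 CPM in KO and 101 ± 1.31 CPM in WT, SD, n = 3 each, log2 fold change -0.29 ± 0.08 SE, 95% interval -0.48 to -0.10, edgeR adjusted p = 0.0677). Eif3b, a scaffold subunit of the core, had 384, 424 and 365 CPM in KO libraries, against 477, 443 and 453 CPM in WT libraries. These groups did not overlap either (log2 fold change -0.23, edgeR adjusted p = 0.172).

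For Eif3a and Eif3h the groups overlapped and the estimates were close to 0. Eif3a, the largest subunit, had 544, 508 and 538 CPM in KO libraries, against 535, 498 and 557 CPM in WT libraries, a log2 fold change of -0.00032 (95% interval -0.21 to 0.21, edgeR adjusted p = 0.998). Eif3h, the subunit with the highest level per length (214 RPKM), had 323, 370 and 348 CPM in KO libraries, against 341, 340 and 350 CPM in WT libraries (log2 fold change 0.01, or -0.11 with total counts as the only scaling, edgeR adjusted p = 0.941). Eif3f and Eif3i followed Eif3b, with log2 fold changes of -0.22 and -0.21, and Eif3c, Eif3d, Eif3e, Eif3j1, Eif3k, Eif3l and Eif3m lay between -0.16 and -0.04. Apart from Eif3j2, mean RPKM over the 6 libraries varied 15.3-fold between the genes of the complex, with Eif3j1, the loosely bound j subunit, at 14.01 RPKM.

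Eif3j2 is a second gene for the j subunit. It had 8.03, 1.22 and 3.23 CPM in KO libraries, against 11.3, 4.34 and 14.5 CPM in WT libraries. The values varied several-fold within each label and overlapped, and its log2 fold change of -1.27 carries a 95% interval of -2.98 to 0.44 (edgeR adjusted p = 0.308). It was -2.18 without KO 31 and -0.84 without KO 32. Its transcript is 99.8% identical to that of Eif3j1 over 2369 bases, and how the reads were split between them is uncertain.

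In eIF4F, the cap-binding and scaffold genes were close between the labels. Eif4e, the cap-binding protein and a known MYC target, had 101, 99.3 and 87.4 CPM in KO libraries, against 110, 106 and 105 CPM in WT libraries. The groups did not overlap but differed by little (log2 fold change -0.15, edgeR adjusted p = 0.315). Eif4g1, the main scaffold, had 636, 685 and 628 CPM in KO libraries, against 613, 696 and 690 CPM in WT libraries, and the groups overlapped (log2 fold change -0.04, edgeR adjusted p = 0.852). Its paralogue Eif4g3 had 386, 429 and 437 CPM in KO libraries, against 364, 387 and 337 CPM in WT libraries (log2 fold change 0.20, edgeR adjusted p = 0.230). Eif4g2, which lacks the eIF4E-binding region, serves cap-independent initiation and was the highest of its group per length (133.5 RPKM), had 1483, 1277 and 1530 CPM in KO libraries, against 1173, 1210 and 1470 CPM in WT libraries, with overlap (log2 fold change 0.16, edgeR adjusted p = 0.467).

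Eif4e2, a cap-binding relative tied to repression, had a log2 fold change of 0.02, or -0.11 with total counts as the only scaling. Eif4e3, a further relative on chromosome 6, had 49.7, 41.9 and 37.4 CPM in KO libraries, against 37.7, 55.2 and 38.6 CPM in WT libraries. WT library 27 was the highest of all 6 and the groups overlapped (log2 fold change -0.03, edgeR adjusted p = 0.941). Per length, Eif4e3 (17.3 RPKM) and Eif4e (16.9 RPKM) stood at nearly the same mean level.

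Unlike most of the family, the helicase genes had positive estimates, though neither passed the test. Eif4a1, the general helicase, had 1183, 1136 and 1285 CPM in KO libraries, against 1082, 980 and 1273 CPM in WT libraries (267 RPKM over the 6 libraries, log2 fold change 0.11, or -0.01 with total counts as the only scaling, edgeR adjusted p = 0.599). Eif4a2, a paralogue also linked to microRNA-guided repression, had 1243, 1124 and 1393 CPM in KO libraries, against 807, 695 and 1197 CPM in WT libraries. WT library 29 overlapped the KO libraries while WT 25 and 27 were below all of them (1253 ± 135 CPM in KO and 900 ± 263 CPM in WT, SD, n = 3 each). Eif4a2 had the highest log2 fold change of the family, 0.48 ± 0.20 SE (95% interval 0.02 to 0.94, edgeR adjusted p = 0.174). Without WT 29 it was 0.74 (adjusted p = 0.0362) and without KO 40 it was 0.31 (adjusted p = 0.409). Eif4b and Eif4h, the helicase's cofactors, had log2 fold changes of -0.11 and -0.17.

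Reads of Eif4a1 may also be counted on a copy. The processed pseudogene Eif4a-ps4 matches 1218 bases of Eif4a1 at 99.9% identity and held counts equal to 11.0% to 12.8% of those of Eif4a1 in KO libraries and 11.98% to 14.3% in WT libraries. Eif4a2 is 78.6% identical to Eif4a1 over the matched bases.

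Paralogue balance was compared as a share of length-scaled level, which removes the library scale. Eif4a2 made up 46.0%, 44.6% and 46.8% of Eif4a1 plus Eif4a2 in KO libraries, against 37.7%, 36.5% and 43.3% in WT libraries. Every KO library was above every WT library (45.8 ± 1.14% in KO and 39.2 ± 3.60% in WT, SD, n = 3 each, exact two-sided permutation p = 0.1). Eif4g3 made up 28.6%, 29.3% and 31.5% of Eif4g1 plus Eif4g3 in KO libraries, against 28.2%, 26.9% and 24.4% in WT libraries, and Eif4e2 36.6%, 35.5% and 39.8% of Eif4e plus Eif4e2 in KO libraries, against 34.7%, 34.6% and 34.2% in WT libraries. The groups overlapped for neither share, each with an exact permutation p of 0.1, the smallest that 3 against 3 libraries allow, so no share could pass a threshold of 0.05. Eif4ebp2 made up 63.6 ± 3.62% of Eif4ebp1 plus Eif4ebp2 in KO and 62.9 ± 4.73% in WT libraries, with overlap (exact permutation p = 0.9). Adjusted over the 4 pairs, the p-values were 0.133 for the first 3 and 0.9 for Eif4ebp2.

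**Figure D4:**
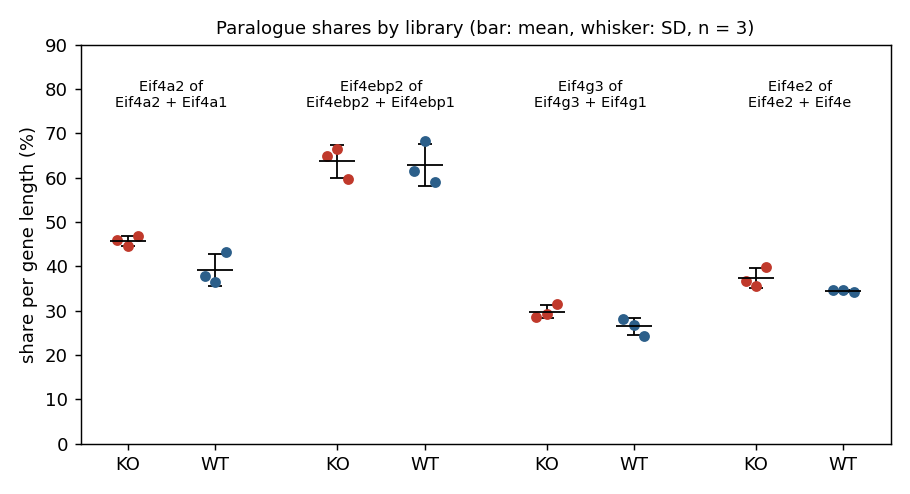
Share of the named paralogue in the length-scaled level of each pair, in percent, 1 point per library, with bars for means and whiskers for SDs (n = 3 each), KO left of WT. The Eif4a2, Eif4g3 and Eif4e2 shares do not overlap between labels, while the Eif4ebp2 shares do.

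The 4E-binding proteins, which compete with eIF4G for eIF4E, overlapped between the labels. Eif4ebp2 had 298, 273 and 233 CPM in KO libraries, against 284, 318 and 278 CPM in WT libraries (edgeR adjusted p = 0.510). Eif4ebp1 had 61.4, 52.0 and 60.0 CPM in KO libraries, against 67.5, 56.3 and 73.2 CPM in WT libraries (edgeR adjusted p = 0.384). Eif4ebp3 stayed under 2 CPM in all 6 libraries, and Eif4enif1, which carries eIF4E into the nucleus, had a log2 fold change of 0.05, or -0.08 with total counts as the only scaling. Eif4ebp2 was the highest of the group per length (48.5 RPKM). The Eif4ebp3 row overlaps Maskbp3 on the same strand, a gene with more counts.

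Eif5a, a small protein that eases peptide bond formation and is the substrate of hypusine modification, had the highest level per length of all tested factors (472 RPKM). It had 1049, 1054 and 1039 CPM in KO libraries, against 1166, 1154 and 1275 CPM in WT libraries. The KO libraries lay close together (SD 7.48 CPM) and were all below the lowest WT library (log2 fold change -0.19, 95% interval -0.40 to 0.02, edgeR adjusted p = 0.216). Its paralogue Eif5a2 had 1.15, 1.53 and 0.531 CPM in KO libraries, against 3.94, 1.81 and 2.12 CPM in WT libraries. The groups did not overlap, at a level near the filter (log2 fold change -1.29 ± 0.49 SE, 95% interval -2.41 to -0.17, edgeR adjusted p = 0.139). Without WT 25 the log2 fold change was -0.87. Dhps and Dohh, the enzymes that make hypusine, had log2 fold changes of -0.21 and -0.22 and were not called.

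Eif6, which keeps the ribosomal subunits apart, and Eif4a3, the helicase of the exon junction complex, differed little between the labels, and neither was called. Eif6 had 75.0, 69.8 and 75.95 CPM in KO libraries, against 77.1, 75.1 and 78.9 CPM in WT libraries (log2 fold change -0.07). Eif4a3 had 158, 154 and 146 CPM in KO libraries, against 160, 154 and 157 CPM in WT libraries (log2 fold change -0.04).

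**Figure D5:**
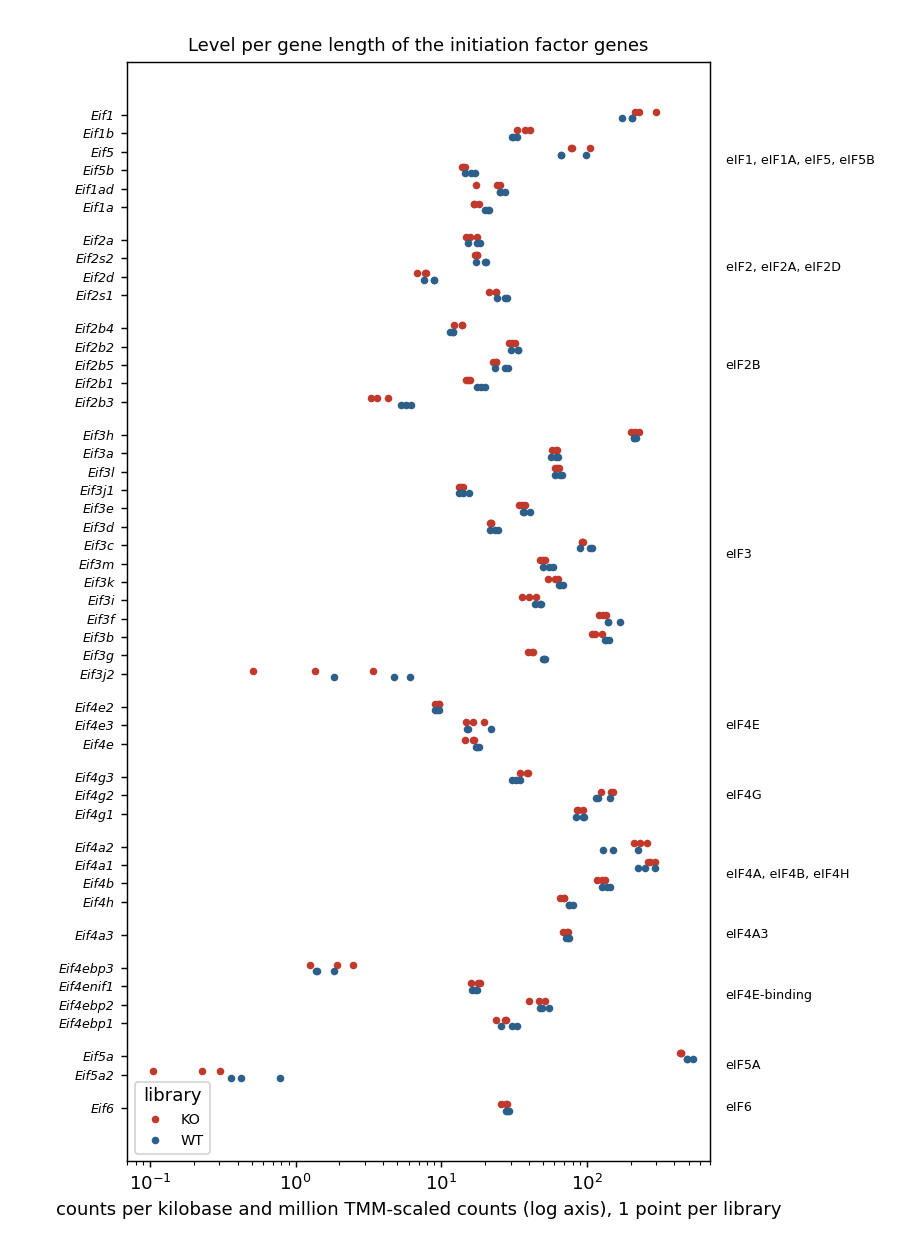
Level per length (RPKM, log axis) of each tested factor, 1 point per library, with KO above WT for each gene. Eif5a is the highest at 472 RPKM over the 6 libraries. Eif5a2, Eif4ebp3 and Eif3j2 have the lowest means, and some Eif3j2 points reach those of Eif2b3.

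Of the 19 factors below the filter, 16 lie on chromosome 12 and carry numbered Eif1ad symbols. Their sequences were not compared with that of Eif1ad. Only 3 of the 16 had any count: Eif1ad7 had 2 counts over the KO libraries and 3 over the WT libraries, Eif1ad10 had 2 over the KO libraries and 0 over the WT libraries, and Eif1ad11 had 1 over the KO libraries and 0 over the WT libraries. Eif4e1b, an oocyte form of the cap-binding protein, had 1 count in the KO libraries and 0 in the WT libraries. Eif4a3l1 and Eif4a3l2, named after Eif4a3, had none.

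Around the factors, 47 further translation genes were looked at as lists. By the edgeR test 3 were higher in the KO libraries, 2 were lower and 42 were not called, a share near the 8.57% called over all genes, with a median log2 fold change of -0.07. The groups did not overlap for 22 of them, 12 with the KO libraries above (17.2% over all genes) and 10 below (16.5% over all genes). The higher ones were Mknk1 and Mknk2, the kinases that phosphorylate eIF4E, and Ppp1r15b, which directs phosphatase to eIF2. The lower ones were Pdcd4, an inhibitor of eIF4A, and Denr, which works in reinitiation.

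Mknk2 had 488, 396 and 538 CPM in KO libraries, against 287, 244 and 359 CPM in WT libraries (log2 fold change 0.68 ± 0.17 SE, edgeR adjusted p = 0.0461). Mknk1 had 86.1, 86.2 and 101 CPM in KO libraries, against 62.8, 72.3 and 69.2 CPM in WT libraries (log2 fold change 0.42, edgeR adjusted p = 0.0459). For both kinases every KO library was above every WT library. Pdcd4 had 234, 252 and 200 CPM in KO libraries, against 421, 355 and 321 CPM in WT libraries (log2 fold change -0.68 ± 0.13 SE, edgeR adjusted p = 0.0242). Every KO library was far below the WT libraries. Denr had 51.0, 55.2 and 50.5 CPM in KO libraries, against 75.4, 68.2 and 70.8 CPM in WT libraries (edgeR adjusted p = 0.0265), and Ppp1r15b had 232, 222 and 232 CPM in KO libraries, against 166, 185 and 148 CPM in WT libraries (edgeR adjusted p = 0.0345). Of the 17 alternatives, Mknk1 lost its call in 10, Mknk2 and Ppp1r15b in 7 each, Denr in 6 and Pdcd4 in 4. None of the 5 was called without KO 40. The edgeR adjusted p there was 0.0864 for Pdcd4, 0.0918 for Denr, 0.153 for Mknk2, 0.139 for Mknk1 and 0.107 for Ppp1r15b.

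By role, 2 of 19 genes of mTORC1 and 4E-binding control were higher and 1 lower, 1 of 6 eIF2 kinase and phosphatase genes was higher, and 1 of 6 other initiation genes was lower. The kinase and phosphatase genes had a median log2 fold change of 0.23 and the mTORC1 group of 0.14. None of 5 poly(A)-binding genes, 2 hypusine genes or 9 elongation and termination genes was called, and Paip2b, the inhibitor of poly(A)-binding protein with the smallest p of its list, stood at -0.48 (edgeR adjusted p = 0.0821). Paip2b passed the threshold with no filter (adjusted p = 0.0335), with DESeq2 (adjusted p = 0.0375) and without KO 32 (log2 fold change -0.65, edgeR adjusted p = 0.0263). Among the elongation and termination genes all 9 estimates were below 0, with a median log2 fold change of -0.17. Eef2, the translocase of elongation, stood at -0.23 (edgeR adjusted p = 0.159, or 0.0453 with total counts as the only scaling). No other of the 17 alternatives put Eef2 past the threshold.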

How the data were processed

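Bulk RNA was sequenced from 3 libraries labelled Rbm5 KO and 3 labelled Rbm5 WT. RNA was extracted with TRIzol and sequenced by a company, per the labels' protocols. Raw counts for 56748 genes, not normalized, make up the deposited table, with 1 column per library. Salmon and limma, with the builds GRCm38 and mm10, are named per the submitters' processing notes, with no step given for any of them. The sources used here do not state strand use, filters or whether the counts are rounded estimates. No gene among the 66 has the start that GENCODE M21 of GRCm38 gives it, so the table's coordinates are printed with no build.

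The factors and lists were chosen with earlier results of these data known. The rule for named genes took called factors and, in each role group, the highest and lowest log2 fold change and the highest level per length, plus members of the 4 paralogue shares. Of the other translation lists it took called genes and the smallest-p gene. All 114 list symbols were found in the table.

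Genes were filtered with filterByExpr (minimum count 10, minimum total 15), scaled by TMM and tested with edgeR 4.0.16 in R 4.3.3 (robust quasi-likelihood fit, KO against WT, no covariates). P-values were adjusted by Benjamini-Hochberg over all 15963 genes, with a threshold of 0.05. DESeq2 1.42.0 and limma-voom (limma 3.58.1) were alternatives, as were other scalings, other filters and fits without some libraries or genes. RPKM used the deposited gene length, which need not be that of the transcripts present, so levels between genes are approximate. Promoters came from RefSeq (GRCm38.p6) and transcript identities from GENCODE M21. The smallest count of a tested factor in any library was 13. Every pair of libraries differed by more than sampling noise (chi-square over its degrees of freedom at least 39.3). The procedure was tested on simulated data, in which the share of false calls was above the nominal threshold, at 9.99% of calls. Of genes given a known fold there, it called 0.8% at 1.25-fold and 16.8% at 1.5-fold. At 2-fold it called 86.8% and at 4-fold 100%. The changed genes were drawn within the factors' range of expression, leaving out genes more variable than most factors. Recovery for the most variable factors was therefore not measured. The p-values measure the spread between these libraries, since the labels do not tie each to its own animal.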

Additional observations from a re-analysis of the deposited data

How the results depend on the processing

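Of the 47 factors tested, 40 kept the sign of their log2 fold change in all 17 alternatives, and 4 passed the threshold in any of them (Eif2b3, Eif3g, Eif1a and Eif4a2). Factors lower in KO numbered 2 with upper-quartile factors and with DESeq2 (Eif3g beside Eif2b3), 3 with total counts alone (also Eif1a), 0 without WT libraries 27 and 29, a fit that leaves 1 WT library assumed to vary like the KO libraries, and 0 to 1 with 1 library left out. Factors higher numbered 0 to 1 with 1 library left out (Eif4a2 without WT 29). The factors' median log2 fold change was -0.16 with upper-quartile factors (all genes -0.06), -0.23 with total counts alone (all genes -0.13) and -0.14 to -0.087 with 1 library left out. All genes higher numbered 1553 with DESeq2, 305 without WT 27 and 29 and 245 to 787 with 1 library left out. All genes lower numbered 836 with no filter, 1054 with DESeq2, 148 without WT 27 and 29 and 102 to 440 with 1 library left out. With total counts alone 597 genes were higher and 682 lower. Translation list genes higher numbered 1 with total counts alone, 5 with DESeq2, 0 without WT 27 and 29 and 0 to 1 with 1 library left out, and those lower 4 with no filter, 1 without WT 27 and 29 and 0 to 3. Shares of Eif4a2, Eif4g3 and Eif4e2 differed by 5.30 to 8.67, 2.26 to 4.16 and 1.58 to 3.70 percentage points with 1 library left out, and that of Eif4ebp2 by -1.19 to 3.38. Signs turned for 7 factors, whose log2 fold changes in the main fit ran from -0.036 (Eif4g1) to 0.11 (Eif4a1). Eif3h was -0.030 with upper-quartile factors, -0.11 with total counts, -0.0051 with no filter and -0.035 to 0.061 with 1 library left out. Eif3a was 0.0065 with RLE factors, 0.0064 with DESeq2, 0.00052 with limma-voom, 0.00057 without haemoglobin, immunoglobulin and mitochondrial genes, and -0.059 to 0.036 with 1 library left out. Eif4a1 was -0.011 with total counts. Eif4enif1 was -0.080 with total counts and -0.011 without WT 27 and 29. Eif4e3 was 0.18 without WT 27 and 29 and -0.14 to 0.16 with 1 library left out. Eif4e2 was -0.028 with upper-quartile factors, -0.11 with total counts, -0.00091 with no filter, -0.047 without WT 27 and 29 and -0.0058 to 0.045 with 1 library left out. Eif4g1 was 0.072 without WT 27 and 29. The cause of these changes was not tested. No paired analysis was possible because the groups share no replicate numbers. The low counts of Eif5a2 and Eif4ebp3 limit what can be shown for them, and their intervals, like that of Eif3j2, reach past 1.5-fold.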
